A study of Mus musculus with 17 samples.

Results

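The motile cilium genes followed here build the axoneme, the microtubule shaft that makes a cilium beat, and the factors that assemble its motors. They were chosen by name: protein-coding genes whose symbol starts with Cfap, Dnah, Dnaaf, Dnai, Dnal, Rsph, Drc or Spag, plus Hydin, Ccdc39, Ccdc40, Tekt1 and Tekt2, with a mean CPM (counts scaled to a common library total) of at least 1 over 17 RNA-seq libraries. Of 83 genes with such names, 75 met the level, among 55487 genes in the table, 39303 with at least 1 read and 16851 tested. The libraries were made from whole choroid plexus, dissected from the lateral ventricles, of the mouse strain C57BL/6. The 5 CTRL libraries are the controls of a time course of dextran sodium sulfate (DSS), a polymer given to mice to injure the colon and induce colitis. The 4 T1 libraries followed 1 day of DSS, the 4 T3 libraries followed 3 days, and the 4 T5 libraries followed 3 days of DSS with 2 more days on water. All groups share strain, tissue and an amplified low-input library kit (SMART-Seq v4), and the labels name no transgene or deletion. The sources used here do not give age, sex, pooling or whether samples are separate animals, so p-values measure the spread between these samples, which may be technical.

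The choroid plexus epithelium makes cerebrospinal fluid, and its cells carry tufts of cilia with an axoneme whose beating is strongest early in life. Ependymal cells, which line the ventricle beside the plexus, carry long beating cilia built from the same parts. In an axoneme, dynein arms walk along neighbouring microtubule doublets, radial spokes and the central pair regulate them, the nexin-dynein regulatory complex turns sliding into bending, and assembly factors fold the dyneins in the cytoplasm beforehand.

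By role, the 75 genes were 13 dynein heavy chains, 5 dynein intermediate and light chains, 5 dynein assembly factors, 29 Cfap genes, 7 radial spoke genes, 5 genes of the nexin-dynein regulatory complex and axonemal ruler, 4 central pair genes, 2 tektins and 5 other Spag genes. Spag5 at 1.10 CPM, Dnah14 at 1.18 and Dnah3 at 1.36 lay just inside the level. Dnah8 at 0.996, Cfap99 at 0.596 and Dnah17 at 0.518 lay just outside it. All 75 passed the filter on low counts used for testing. Near-identical copies, whose reads cannot be split with certainty, are Dnah7a, Dnah7b and Dnah7c, Rsph3a and Rsph3b, and Spag6l with Spag6. Spag17 shares 820 exon bases, 9.66% of its exons, with Wdr3 on the opposite strand, and Wdr3 had 12.4 reads for each Spag17 read. Dnah14 shares 440 exon bases, 2.71% of its exons, with Lbr on the opposite strand, and Lbr had 22.9 reads for each Dnah14 read. Other such overlaps covered 20.7% of the exons of Dnaaf1 (with Taf1c), 32.7% of Dnaaf2, 16.9% of Ccdc39 (with Ttc14) and 10.5% of Dnah3 (with Lyrm1). Whether reads were counted by strand is not given in the sources used here.

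Some libraries stood apart before any gene was compared. Totals ran from 8875921 to 26839417 counts. The running numbers in the sample titles reach 28 or more in 4 libraries, T1 replicates 2, 3 and 4 and T3 replicate 4. These 4 differed from the rest in how gene length related to signal (described further on). Several T1 and T3 values, not all, are therefore also given without some or all of them. Without all 4, T1 keeps only replicate 1, so such T1 values describe 1 library. Ttr, the transthyretin gene that marks choroid plexus epithelium, ran from 54520 to 148900 CPM after TMM normalisation (scaling libraries to a common composition). The summed level of 10 ependymal marker genes ran from 73.7 to 256 CPM in CTRL, and T1 held 89.1 to 363, T3 106 to 802 and T5 149 to 1005. At T3 the sum and the mean log2 CPM of these genes differed in direction. The sum averaged 171 in CTRL and 298 in T3, and the mean log2 CPM was 2.86 and 2.35. Of these marker genes, Tmem212 ran from 0.589 to 32.9 CPM and Ccdc153 from 1.10 to 37.7 CPM, and Vit was at 0 in its lowest library. Markers of neurons, astrocytes and oligodendrocytes summed to 134 to 7120.0 CPM in CTRL, and T1 held 550.4 to 9705, T3 279.9 to 1825 and T5 715 to 16450.0. In such bulk samples, fewer ciliated cells and less RNA per cell cannot be told apart.

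RFX transcription factors and FOXJ1 switch on motile cilium genes, and RFX factors bind a motif called the X-box. Promoter windows of 300 bases, from 250 before to 50 after each gene start, came from RefSeq on GRCm38.p6 and matched 62 of the 75 genes with 70 windows. The X-box half-site GTTGCC, on either strand, was in 27 of the 70 windows (38.6%) and in 12.5% of all 32851 promoters of the same length. The longer form GTTGCCNNG, which contains the shorter form, was in 24.3% against 5.00%. The forkhead core GTAAACA was in 2 windows (2.86%) against 3.65%. By role, GTTGCC was in 11 of 25 Cfap windows, 4 of 12 heavy chain windows, 1 of 5 radial spoke windows and 3 of 4 central pair windows. A match is a run of letters and says nothing about binding. No match stood in the windows of Dnah6, Cfap43, Spag17, Ccdc39 or Rsph9, whose values are given further on. The stretches below were picked from genes with a match. They read 5′ to 3′ on the strand of the gene and upstream of its RefSeq start, with the matched letters in capitals:
Cfap298, chr16:90935012-90935049, minus strand: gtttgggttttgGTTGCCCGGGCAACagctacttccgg
Cfap298, chr16:90934892-90934930, minus strand: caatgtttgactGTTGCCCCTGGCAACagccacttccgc
Cfap44, chr16:44394658-44394687, plus strand: ggacgactctgtGGCAACacctcagtttag
Cfap44, chr16:44394768-44394797, plus strand: ggacgttgctatGGCAACcgcagtaaacgg
Cfap74, chr4:155409059-155409091, plus strand: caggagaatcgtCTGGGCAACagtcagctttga
Dnah7a, chr1:53706967-53706996, minus strand: tcgctcctcacaGTTGCCtgccaccctctg
Dnah7b, chr1:46066678-46066707, plus strand: tacaggagcacaGTTGCCacccacccttaa
Dnah7c, chr1:46425287-46425316, plus strand: tcactcctcagaGTTGCCttccaccctctg
Spag16, chr1:69826844-69826884, plus strand: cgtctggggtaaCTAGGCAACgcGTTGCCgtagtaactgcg
Dnaic2, chr11:114727378-114727410, plus strand: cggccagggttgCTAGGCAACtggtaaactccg
Tekt1, chr11:72361900-72361929, minus strand: tcttctaactagGGCAACgttgcgtccgtc

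In both Cfap298 stretches the capitals hold the half-site on each strand, facing each other. The 3 Dnah7 copies share the half-site at different distances from their starts, -200 in Dnah7a, -163 in Dnah7b and -219 in Dnah7c. GGCAAC, as in Cfap44 and Tekt1, is the same half-site on the other strand. The same letters stand upstream of genes whose values differ in direction below: Cfap298 and Tekt1 had lower means at T1, Cfap74 a higher mean at T1, and Dnah7b and Cfap44 lower means at T5.

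Mean levels spanned a wide range between roles. On a per-length scale (RPKM, CPM divided by exon length in kilobases), the highest mean levels over all libraries were those of Drc7 (182 RPKM), a subunit of the nexin-dynein regulatory complex, Rsph9 (176) and Rsph1 (124), proteins of the radial spoke head, and Tekt1 (85.9), a filament protein of the doublet microtubules. Dynein heavy chains, the motor subunits, ran from 0.0719 RPKM in Dnah14 to 2.22 in Dnah6, with a median of 0.252. Intermediate and light chains, which sit on the same arms, ran from 1.81 to 28.2 RPKM. Cfap genes had a median of 5.37 RPKM and radial spoke genes a median of 10.1. Exons summed to 921 to 19980 bases per gene. The spread between libraries of a group, as edgeR's biological coefficient of variation, had a median of 20.9% over the 75 genes against 25.2% over all genes tested. It exceeded 50% in 9 of them, 5 of which were heavy chains, and was 106% in Dnah5, 103% in Dnah10 and 81.9% in Dnah12. The tightest was Cfap54, at 12.8%.

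**Figure D1:**
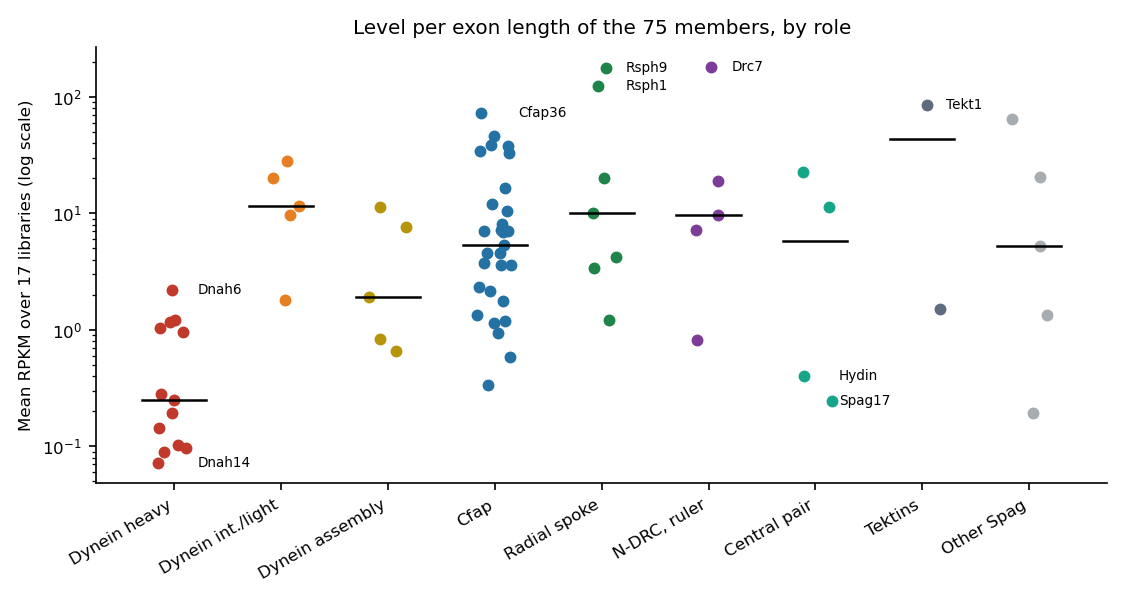
Mean level of each of the 75 genes over 17 libraries in RPKM on a log axis, grouped by role, with 1 point per gene. Heavy chains lie between 0.0719 and 2.22 RPKM, below all 5 intermediate and light chains (1.81 to 28.2 RPKM) except for their top end, and Drc7, Rsph9 and Rsph1 lead the plot.

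No gene among the 75 passed an adjusted p of 0.05 by edgeR's quasi-likelihood test with Benjamini-Hochberg adjustment over 16851 genes, at T1, T3 or T5 against CTRL or at T5 against T3. The share of all genes called was 0% in each of these 4 comparisons. At an unadjusted p under 0.05, 7 members were higher and 17 lower at T1, against 9.43% and 11.7% of all genes. At T3, 0 were higher and 6 lower, against 3.2% and 1.77% of all genes. At T5 the counts were 0 higher and 12 lower, against 3.89% and 3.94%. Set against T3, T5 had 2 higher and 9 lower, against 4.31% and 6.15%. The 3 comparisons with CTRL share its 5 libraries, so their values are given side by side and not as separate support. The median log2 fold change of the 75 genes was -0.00 at T1, -0.16 at T3 and -0.09 at T5, and that of all genes tested was 0.08, 0.02 and 0.02. At T1, 37 members had a positive value and 38 a negative one. Negative values were held by 60 of 75 at T3 and by 56 of 75 at T5. Without the 4 libraries of high title number, 45 of 75 were negative at T3 (median -0.05).

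Other tools moved the counts at T1 most. DESeq2 called 2 members higher and 3 lower at T1 (2.2% and 3.38% of the genes it gave an adjusted p), 0 at T3 (0.0119% in either direction), 0 higher and 2 lower at T5 (0.0119% and 0.0595%), and 1 higher and 2 lower at T5 against T3 (0.179% and 0.298%). limma's voom with quality weights called 9 higher and 19 lower at T1 (11.9% and 12.7% of all genes) and 0 in the other 3 comparisons (0% of all genes). By edgeR, leaving out T1 replicate 1 gave 6 higher and 11 lower at T1 (4.14% and 8.95%), and leaving out T3 replicate 4, which enters the shared spread, gave 1 higher and 8 lower (1.41% and 2.88%).

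Groups that do not overlap give a count with no model behind it. At T1, Cfap43 was above every CTRL library, and Cfap298, Cfap299, Cfap300, Cfap53, Spag6l, Drc3 and Tekt1 were below every one (1 and 7 members, against 2.9% and 3.86% of all genes). At T3, 0 were above and Cfap54 and Spag17 were below (0.783% and 0.92% of all genes). At T5, 0 were above and 10 were below every CTRL library (0.985% and 1.57%): the heavy chains Dnah6, Dnah7b, Dnah7c and Dnah9, the Cfap genes Cfap43, Cfap44, Cfap54 and Cfap65, the assembly factor Dnaaf3 and the ruler gene Ccdc39. Between T5 and T3, Spag17 was above and Cfap43, Cfap44, Cfap65, Dnah6, Dnah7b and Dnah9 below (1 and 6 members, against 3.04% and 4.31%).

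**Figure D2:**
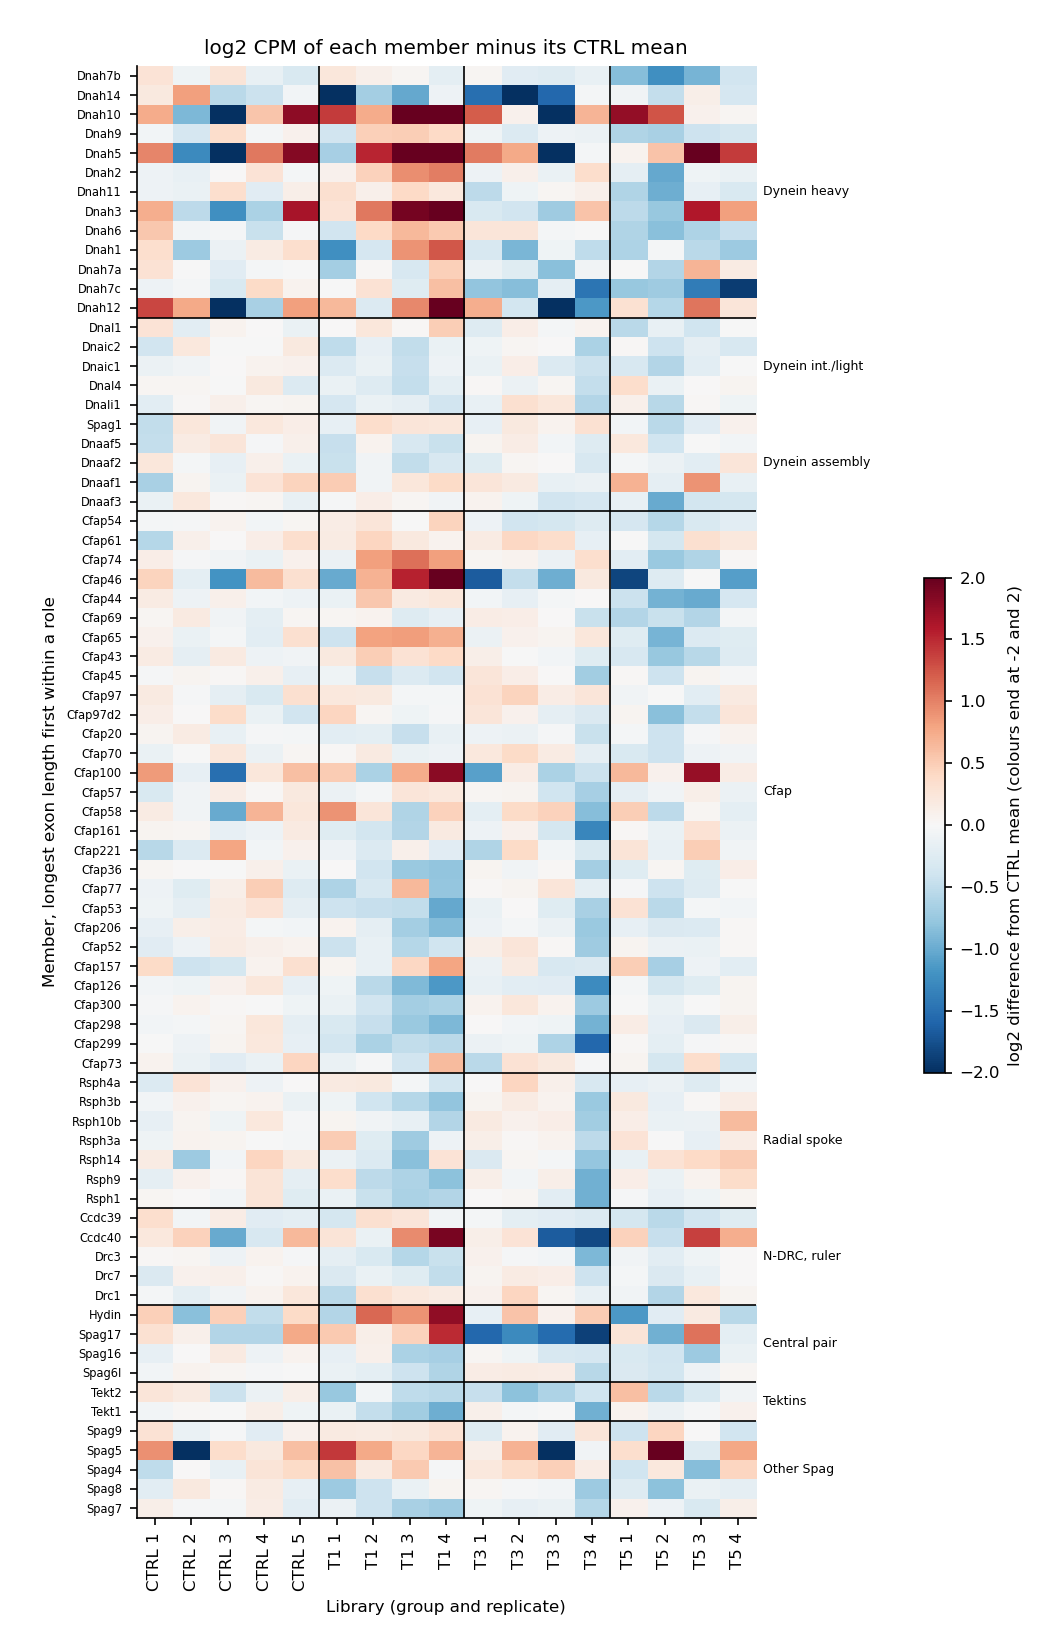
Heat map of the 75 genes (rows, grouped by role) in 17 libraries (columns, by group), as log2 deviation from the mean of the CTRL libraries. T1 replicates 2 to 4 and T3 replicate 4 differ from their neighbours in many rows, and heavy chains such as Dnah6 and Dnah7b are low across the T5 columns.

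The dynein heavy chains are the ATPases that drive the beat. At T5, 9 of 13 had negative values with a median of -0.32, and 5 were lower at an unadjusted p under 0.05, against 3.94% of all genes. Their summed level was 65.5 to 94 CPM in T5, below all of CTRL at 107.7 to 138.5, while T1 held 111 to 192 and T3 held 104 to 116. The sum rests mostly on the chains with the highest levels. The mean log2 CPM of the 13, which weighs each chain alike, was 1.56 to 2.16 in T5, inside the CTRL range of 1.37 to 2.50. At T1, 11 of 13 had positive values (median 0.32), and at T3, 11 of 13 had negative values (median -0.31). Against T3, T5 had 6 positive and 7 negative values (median -0.03). Without the 4 libraries of high title number the T1 median, from 1 T1 library, was -0.14, with 5 of 13 positive. The T3 median was then -0.40, with 12 of 13 negative. Beside these T5 values, 9 of 10 ependymal markers were positive (median 0.53), and 8 of 12 markers of choroid plexus epithelium were negative (median -0.10). Markers of neurons were positive in 7 of 7 (median 2.27), of astrocytes in 6 of 6 (1.06), of oligodendrocytes in 6 of 6 (0.93) and of macrophages in 5 of 5 (0.64). The part of epithelial or macrophage content in the T5 values was not tested, and values with brain and ependymal scores as covariates are given further on.

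Dnah7b (chr1:46066315-46373546 in GRCm38, plus strand) encodes an inner arm heavy chain. Its TMM-normalised CPM were 28.1, 21.9, 28.05, 21.2 and 18.9 in CTRL, 27.3, 24.97, 23.96 and 20.4 in T1, 23.9, 19.9, 19.5 and 21.02 in T3, and 12.8, 9.92, 12.2 and 17.8 in T5. The 4 T5 libraries were the 4 lowest of all 17, and T1 and T3 overlapped CTRL. The mean was 23.6 ± 4.21 (SD, n = 5) in CTRL and 13.2 ± 3.32 (SD, n = 4) in T5. The log2 fold change at T5 was -0.84 ± 0.17 (SE), lower in 4 of 4 libraries, with unadjusted p = 9.53e-05 and adjusted p = 0.521 by edgeR's quasi-likelihood test. DESeq2 gave an adjusted p of 0.0180 (range over all alternatives 0.0180 to 0.916). Against T3 the value was -0.67 ± 0.17, with adjusted p = 0.267 by edgeR. With the ependymal marker score as a covariate the T5 value was -0.77 ± 0.18, and with the trend by gene length removed it was -0.74 ± 0.21.

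Dnah6 (chr6:73017606-73221651), the inner arm heavy chain with the highest level of the family here, gave CPM of 42.3, 28.1, 28.5, 21.5 and 28.8 in CTRL, 22.3, 38.5, 45.9 and 42.1 in T1, 34.4, 34.4, 28.3 and 28.8 in T3, and 19.2, 16.3, 18.9 and 21.1 in T5. T5 again held the 4 lowest libraries of all 17, and T1 and T3 overlapped CTRL. The T5 difference from CTRL was -0.66 ± 0.20 log2, with unadjusted p = 0.00374 and adjusted p = 0.5683 by edgeR. It was -0.74 ± 0.21 against T3. Dnah7c, a near-identical neighbour of Dnah7b whose values may share its reads, ran from 1.81 to 2.96 CPM in CTRL and from 0.523 to 1.34 in T5, a log2 difference of -1.21 ± 0.36 (unadjusted p = 0.00336, edgeR adjusted p = 0.5683). The remaining copy, Dnah7a, was not lower in its mean, at 2.55 ± 0.348 (SD, n = 5) CPM in CTRL and 2.78 ± 1.02 (SD, n = 4) in T5. Dnah11, an outer arm heavy chain, went from 14.5 ± 2.40 (SD, n = 5) to 10.3 ± 2.48 (SD, n = 4). That is -0.50 ± 0.18 log2, with adjusted p = 0.598 by edgeR. Dnah9, another outer arm chain, was at -0.52 ± 0.17.

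Not all heavy chains were low at T5. Dnah5, the outer arm chain most often mutated in primary ciliary dyskinesia, gave CPM of 1.19, 0.161, 0, 1.26 and 2.24 in CTRL, 0.306, 1.79, 3.82 and 7.28 in T1, 1.25, 1.01, 0 and 0.536 in T3, and 0.586, 0.866, 3.33 and 1.63 in T5. Each group overlapped CTRL, and the T5 difference of 0.74 ± 1.05 was smaller than its error. At T1, Dnah2, an inner arm chain, went from 15.98 ± 1.87 (SD, n = 5) to 25.4 ± 7.35 (SD, n = 4) CPM. The log2 difference was 0.67 ± 0.20, with adjusted p = 0.138 by edgeR and 0.0418 by DESeq2 (range over all alternatives 0.00688 to 0.999), and without the 4 libraries of high title number it was 0.06 ± 0.28. Dnah10 had the largest heavy chain value at T1, 2.81 ± 1.05, which rested on 13.02 CPM in T1 replicate 4 against 1.22, 0.733 and 2.72 in the others. At T3, Dnah14, the lowest of the family, was at -1.27 ± 0.57, from 1.05 to 2.86 CPM in CTRL and 0.271 to 1.52 in T3. The part of the overlapping gene Lbr in this value was not tested.

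The 5 intermediate and light chains are smaller subunits of the dynein arms. By sign, 4 of 5 were negative at T1 (median -0.25), 5 of 5 at T3 (median -0.13) and 4 of 5 at T5 (median -0.23), and only Dnaic2 at T1 had an unadjusted p under 0.05. Dnaic2, an outer arm intermediate chain, went from 50.05 ± 7.72 (SD, n = 5) in CTRL to 39.9 ± 5.59 (SD, n = 4) CPM at T1, a log2 difference of -0.33 ± 0.15 (edgeR adjusted p = 0.230). Dnal4, a light chain and the highest of the 5 per length (28.2 RPKM), was at -0.27 ± 0.13. At T5, Dnaic1, the partner of Dnaic2, was at -0.27 ± 0.13 and the light chain Dnal1 at -0.27 ± 0.15. With the heavy chains, the 18 dynein genes had medians of 0.22 at T1, -0.17 at T3 and -0.27 at T5.

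The 5 assembly factors fold and preassemble the arms. Their medians were 0.02 at T1, -0.04 at T3 and -0.07 at T5. Dnaaf3 was the only one with an unadjusted p under 0.05, at T5. It gave CPM of 16.8, 21.5, 18.7, 19.02 and 16.7 in CTRL, 18.2, 20.3, 19.04 and 17.6 in T1, 19.4, 17.5, 14.1 and 14.7 in T3, and 16.6, 9.13, 14.3 and 14.4 in T5. The highest T5 library lay just below the lowest CTRL library, and the difference was -0.44 ± 0.15 log2 (unadjusted p = 0.0105, edgeR adjusted p = 0.598). Dnaaf5 was at -0.29 ± 0.16 at T1 and -0.07 ± 0.16 at T5. Dnaaf1 and Dnaaf2, whose exons overlap other genes, were at 0.36 ± 0.27 and -0.03 ± 0.23 at T5.

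**Figure D3:**
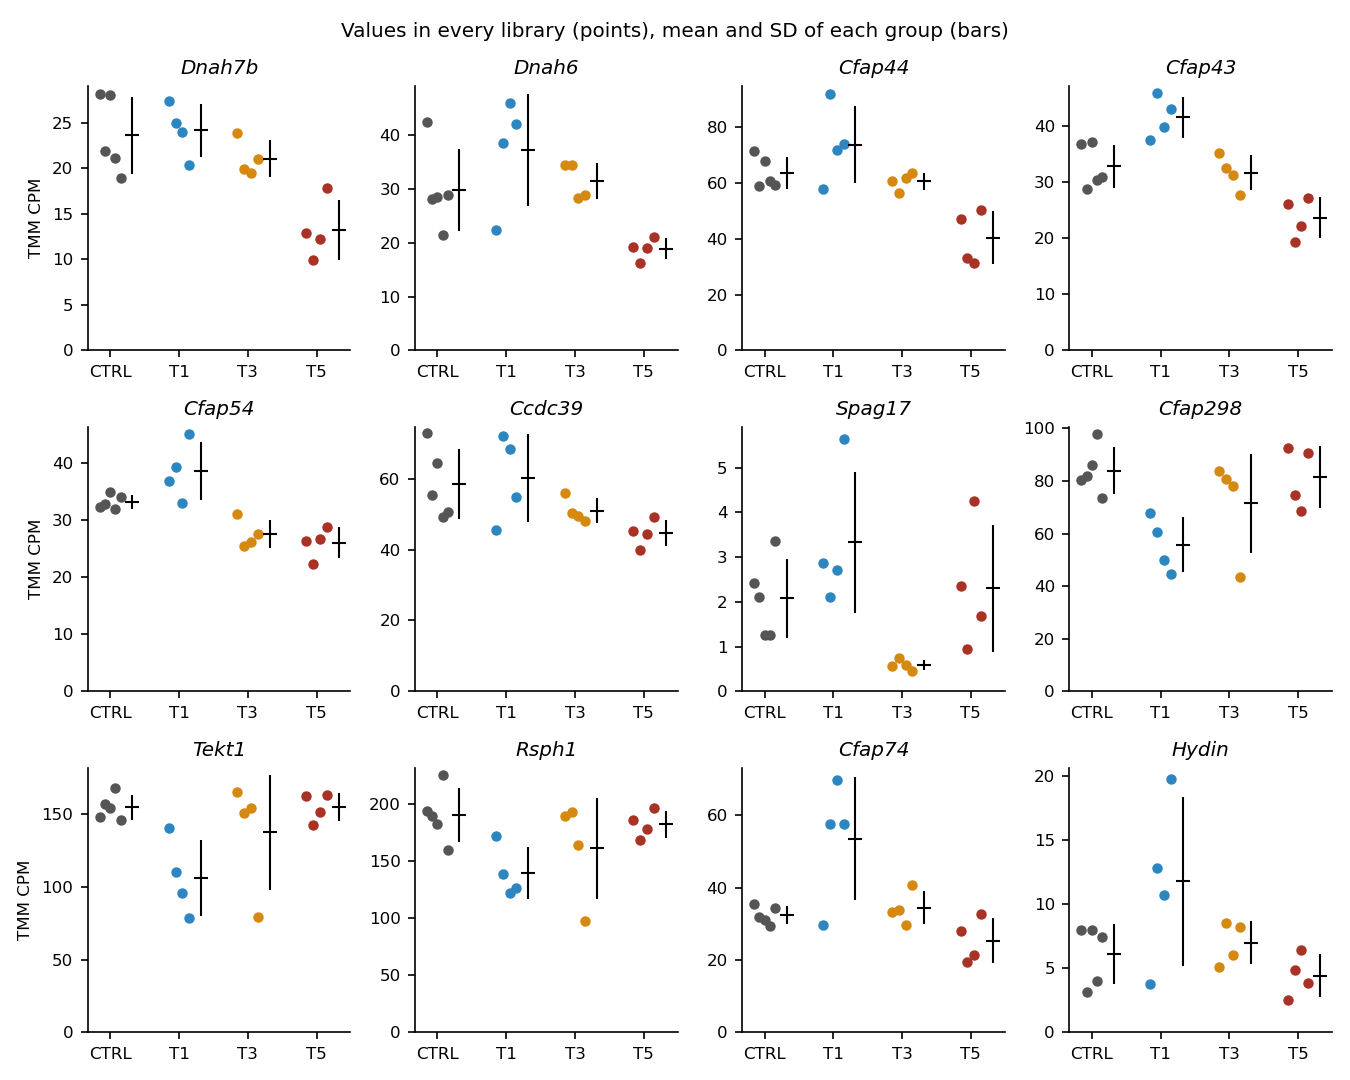
TMM-normalised CPM of 12 genes in each library, with 1 point per library, by group, and the mean ± SD of each group beside them. Dnah7b, Dnah6, Cfap44 and Cfap43 lie below all CTRL points at T5, Cfap298 and Tekt1 lie below all CTRL points at T1, and Spag17 runs from 0.453 to 0.737 CPM at T3.

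The Cfap genes (cilia and flagella associated proteins) are a naming family of many functions, among them microtubule inner proteins, central pair components and tether proteins. At T5, 25 of 29 had negative values with a median of -0.09, and 4 were lower at an unadjusted p under 0.05, against 3.94% of all genes. At T3, 22 of 29 were negative (median -0.07), with 2 lower at that p, against 1.77% of all genes. At T1 values split 14 to 15 with a median of -0.01. There, 4 were higher and 9 lower at that p, against 9.43% and 11.7% of all genes. Summed over the family, the level was 1259 to 1308 CPM in CTRL, and T1 held 1071 to 1239, T3 902 to 1315 and T5 1037 to 1287. By this sum T1 lay below all of CTRL while T3 and T5 overlapped it. The mean log2 CPM of the family was 4.38 to 4.49 in T1, inside the CTRL range of 4.37 to 4.515. Against T3, T5 had 13 positive and 16 negative values, with 1 higher and 7 lower at that p, against 4.31% and 6.15% of all genes. The T5 values that were lowest relative to their error belonged to Cfap44 and Cfap43, partners in the tether that links inner arm dyneins to the doublet.

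Cfap44 (chr16:44394796-44482428, plus strand) gave CPM of 71.3, 58.7, 67.7, 60.6 and 59.3 in CTRL, 57.9, 91.6, 71.6 and 73.8 in T1, 60.7, 56.2, 61.6 and 63.4 in T3, and 46.9, 32.99, 31.4 and 50.3 in T5. The 4 T5 libraries were the 4 lowest of all 17. The mean was 63.5 ± 5.63 (SD, n = 5) in CTRL and 40.4 ± 9.61 (SD, n = 4) in T5, and the log2 difference was -0.65 ± 0.15. edgeR gave unadjusted p = 0.000374 and adjusted p = 0.521, and DESeq2 an adjusted p of 0.0291 (range over all alternatives 0.0291 to 0.916). Cfap43 (chr19:47736857-47919287) gave CPM of 36.8, 28.8, 37.1, 30.4 and 30.9 in CTRL, 37.6, 45.8, 39.8 and 42.98 in T1, 35.3, 32.6, 31.3 and 27.6 in T3, and 26.1, 19.3, 22.1 and 27.2 in T5. T5 again lay below every CTRL and T3 library, and T1 lay above every CTRL library. The differences from CTRL were 0.34 ± 0.12 at T1 and -0.47 ± 0.12 at T5, with edgeR adjusted p = 0.153 and 0.521. Without the 4 libraries of high title number, Cfap43 was at 0.18 ± 0.19 at T1, which leaves 1 T1 library.

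Cfap54, a component of the central pair, had the smallest spread between libraries and gave CPM of 32.4, 32.8, 34.9, 31.99 and 34.1 in CTRL, 36.8, 39.3, 33.03 and 45.2 in T1, 31.02, 25.5, 26.1 and 27.7 in T3, and 26.3, 22.4, 26.7 and 28.8 in T5. T3 and T5 were both below all CTRL libraries, with differences of -0.27 ± 0.10 and -0.35 ± 0.10 log2 and edgeR adjusted p = 0.911 and 0.5683. Cfap69, a further central pair component, was at -0.41 ± 0.14 at T5 (unadjusted p = 0.0101, edgeR adjusted p = 0.598). Cfap299 was at -0.52 ± 0.22 at T1 and -0.50 ± 0.22 at T3. Cfap36, the highest of the family per length (73.1 RPKM), was at -0.44 ± 0.17 at T1 and -0.07 ± 0.17 at T5.

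The Cfap genes with the smallest p at T1 were Cfap298 and Cfap74. Cfap298, with 1589 exon bases and a role in dynein arm assembly, gave CPM of 80.4, 81.7, 86.04, 97.8 and 73.6 in CTRL, 67.7, 60.7, 50.1 and 44.5 in T1, 83.7, 80.8, 78.3 and 43.5 in T3, and 92.4, 74.5, 68.6 and 90.7 in T5. Its T1 libraries were below all of CTRL, and T3 replicate 4 was lower still. The T1 difference was -0.59 ± 0.17, with adjusted p = 0.138 by edgeR and 0.0375 by DESeq2 (range over all alternatives 0.00533 to 0.999), and -0.32 ± 0.16 log2 without the 4 libraries of high title number. Cfap74, with 9951 exon bases and a place in the central pair, gave CPM of 35.6, 31.9, 30.99, 29.4 and 34.3 in CTRL, 29.7, 57.5, 69.7 and 57.5 in T1, 33.4, 33.96, 29.7 and 40.7 in T3, and 27.9, 19.4, 21.3 and 32.8 in T5. T1 replicate 1 lay within the CTRL range and replicates 2 to 4 lay above it. Its T1 difference was 0.73 ± 0.19, with adjusted p = 0.131 by edgeR and 0.0200 by DESeq2 (range 0.00482 to 0.999). The value ran from -0.14 to 0.92 over the alternatives and was -0.14 ± 0.22 without the 4 libraries of high title number.

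The 7 radial spoke genes, whose products pass signals from the central pair to the dyneins, were all negative at T1 with a median of -0.25, and 2 were lower at an unadjusted p under 0.05, against 11.7% of all genes. At T3, 6 of 7 were negative (median -0.08) and at T5, 5 of 7 were positive (median 0.07), with 0 past that p at either time. Against T3, T5 was positive in 6 of 7 (median 0.18). Without T3 replicate 4 the median of these genes was 0.06 at T3 and -0.005 at T5 against T3. Their summed level was 553 to 715 CPM in CTRL, and T1 held 395 to 695, T3 346 to 651 and T5 564 to 729.7, and all groups overlapped. Rsph1 gave CPM of 194, 189.8, 183, 225 and 160.1 in CTRL, 172, 139, 122 and 127 in T1, 189.9, 194, 164 and 97.4 in T3, and 186, 168, 178 and 197 in T5. T1 replicates 2, 3 and 4 and T3 replicate 4 were the 4 lowest libraries of all. The T1 difference was -0.45 ± 0.17, with unadjusted p = 0.0167 and adjusted p = 0.165 by edgeR, and T5 was at -0.06 ± 0.17. Without the 4 libraries of high title number the T1 value was -0.16 ± 0.15.

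Rsph9 gave CPM of 261, 314, 301, 354 and 260.4 in CTRL, 376, 206, 192 and 168 in T1, 322, 285, 319 and 153 in T3, and 325, 271, 309 and 381 in T5, with the same 4 libraries lowest and T1 replicate 1 above all of CTRL. Its differences were -0.34 ± 0.23 at T1 (0.32 ± 0.17 without those 4 libraries) and 0.11 ± 0.23 at T5. Rsph3b, a spoke stalk gene with the near-identical copy Rsph3a, was at -0.44 ± 0.18 at T1 (unadjusted p = 0.0238, edgeR adjusted p = 0.183). Rsph4a, a spoke head gene, was at -0.16 ± 0.15 at T5, and Rsph14 at -0.29 ± 0.29 at T3. Without the 4 libraries of high title number, which leaves 1 T1 library, the spoke genes' T1 median was 0.03. With a term for those libraries it was 0.25, so the sign of the T1 median depended on how they were handled. Whether this lies in those 4 libraries or in the T1 library that remains cannot be told apart. At T5 the spoke genes and the heavy chains had medians of opposite sign, 0.07 and -0.32, and the difference between these medians was not tested. These roles also differ in exon length, described further on.

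Central pair genes encode the projections of the central microtubules. Spag17 (chr3:99885406-100143322) is a projection protein whose loss impairs ciliary motility. It gave CPM of 2.43, 2.10, 1.26, 1.26 and 3.36 in CTRL, 2.86, 2.12, 2.72 and 5.65 in T1, 0.578, 0.737, 0.594 and 0.453 in T3, and 2.34, 0.945, 4.26 and 1.69 in T5. The T3 libraries held the 4 lowest values of all 17, T3 replicate 4 among them. The T3 difference was -1.80 ± 0.46 log2, with unadjusted p = 0.00105 and adjusted p = 0.911 by edgeR, and -1.69 ± 0.52 without the 4 libraries of high title number. Against T3, T5 was higher by 1.95 ± 0.47, with adjusted p = 0.267 by edgeR and 0.0411 by DESeq2 (range 0.0411 to 0.790). Markers of some other cells moved with it, while those of neurons went the other way at T3. Ependymal markers were negative in 9 of 10 at T3 (median -0.78) and positive in 10 of 10 at T5 against T3 (median 1.45). Oligodendrocyte markers were negative in 6 of 6 at T3 (median -2.74) and positive in 6 of 6 at T5 against T3 (median 3.65). Astrocyte markers were negative in 4 of 6 at T3 (median -0.21) and positive in 6 of 6 at T5 against T3 (median 1.51). Neuron markers were positive in 7 of 7 both at T3 (median 1.345) and at T5 against T3 (median 0.62). With the brain score as a covariate, Spag17 was at -1.73 ± 0.43 at T3 and 1.61 ± 0.48 at T5 against T3. With the ependymal score as a covariate, chosen after the data were seen, the T3 value of Spag17 was -1.47 ± 0.36 and the T5 against T3 value 1.12 ± 0.43. The part of the overlapping gene Wdr3 in these values was not tested.

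Hydin, a very large central pair protein whose loss causes hydrocephalus, gave CPM of 7.96, 3.15, 7.99, 4.03 and 7.46 in CTRL, 3.78, 12.8, 10.8 and 19.8 in T1, 5.11, 8.57, 6.07 and 8.20 in T3, and 2.50, 4.88, 6.46 and 3.84 in T5. It was at 0.95 ± 0.39 at T1 (unadjusted p = 0.0273, edgeR adjusted p = 0.189), with T1 replicate 1 inside the CTRL range, and at -0.71 ± 0.60 without the 4 libraries of high title number. Spag16 was at -0.38 ± 0.16 at T5 (unadjusted p = 0.0287). Spag6l was at -0.32 ± 0.14 at T1, below all of CTRL, with T3 replicate 4 at 76.8 CPM against 124, 126 and 125 in the other T3 libraries.

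In the nexin-dynein regulatory complex and the axonemal ruler, medians were 0.04 at T1, -0.18 at T3 and -0.09 at T5. Drc7 gave CPM of 469, 614, 620.0, 588 and 605 in CTRL, 474, 528, 485 and 408 in T1, 601, 644, 632 and 431 in T3, and 558, 474, 520.1 and 580.2 in T5, and the groups overlapped throughout. It was at -0.29 ± 0.13 at T1 and -0.12 ± 0.13 at T5. Drc3 was at -0.37 ± 0.15 at T1 (unadjusted p = 0.0233, edgeR adjusted p = 0.182). Ccdc39 forms, with Ccdc40, the ruler that sets the repeat of the arms. It gave CPM of 72.9, 55.4, 64.3, 49.2 and 50.6 in CTRL, 45.4, 71.97, 68.5 and 54.8 in T1, 56.1, 50.2, 49.6 and 48.01 in T3, and 45.1, 39.9, 44.5 and 49.1 in T5. The highest T5 library lay just below the lowest CTRL library, and the difference was -0.39 ± 0.14 log2 (unadjusted p = 0.0126, edgeR adjusted p = 0.598). Its partner Ccdc40 varied from 0.989 to 14.2 CPM and was at 0.57 ± 0.53, so the pair differed in sign at T5, within the error of Ccdc40.

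The tektins line the doublet microtubules. Tekt1 (chr11:72344722-72362442, minus strand) gave CPM of 148, 157, 154, 168 and 146 in CTRL, 140.4, 111, 95.7 and 78.4 in T1, 166, 151, 154 and 79.2 in T3, and 163, 143, 152 and 163 in T5. T1 was below all of CTRL, T3 replicate 4 was level with the lowest T1 library, and T5 overlapped CTRL. The T1 difference was -0.54 ± 0.18, with unadjusted p = 0.00872 and adjusted p = 0.147 by edgeR (range over all alternatives 0.00492 to 0.999), and the T5 value was 0.00 ± 0.18. Without the 4 libraries of high title number the T1 value was -0.15 ± 0.11. Tekt2, at 3.41 ± 0.6247 (SD, n = 5) CPM in CTRL, was at -0.61 ± 0.27 at T3 (unadjusted p = 0.0390, edgeR adjusted p = 0.911). The 5 other Spag genes (sperm associated antigens) are not all axonemal: Spag9 is a scaffold of kinase signalling and transport, and Spag5 a mitotic spindle protein. Spag7 was the one with an unadjusted p under 0.05, at T1, with -0.46 ± 0.14 (edgeR adjusted p = 0.138, DESeq2 0.0389, range 0.00553 to 0.999). At T1, Spag9 was at 0.20 ± 0.16 and Spag8 at -0.28 ± 0.18. Spag4 was at 0.28 ± 0.25 at T3 and Spag5 at 0.81 ± 0.77 at T5.

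The 75 genes' values at T1 followed exon length. The choice by name did not use length, but role and length went together. Heavy chains had 12009 to 19980 exon bases and radial spoke genes 1372 to 3650, so values by role and by length cannot be told apart fully. The 25 shortest (up to 3004 bases) had a median of -0.34 at T1, the 25 in the middle -0.08 and the 25 longest (over 7187 bases) 0.27. All genes tested in the same length classes had -0.14, 0.11 and 0.27. Across the 75 genes, the Spearman correlation of length with the log2 fold change was 0.66 at T1, -0.00 at T3 and -0.34 at T5, and across 16848 genes it was 0.34, 0.31 and -0.05. These are descriptions across genes that share the same libraries and are not independent replicates. Without the 4 libraries of high title number the T1 correlation was 0.09 for the 75 genes and 0.01 for all genes. With each library's trend by length removed, an alternative chosen after the data were seen, it was 0.36 and 0.02.

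**Figure D4:**
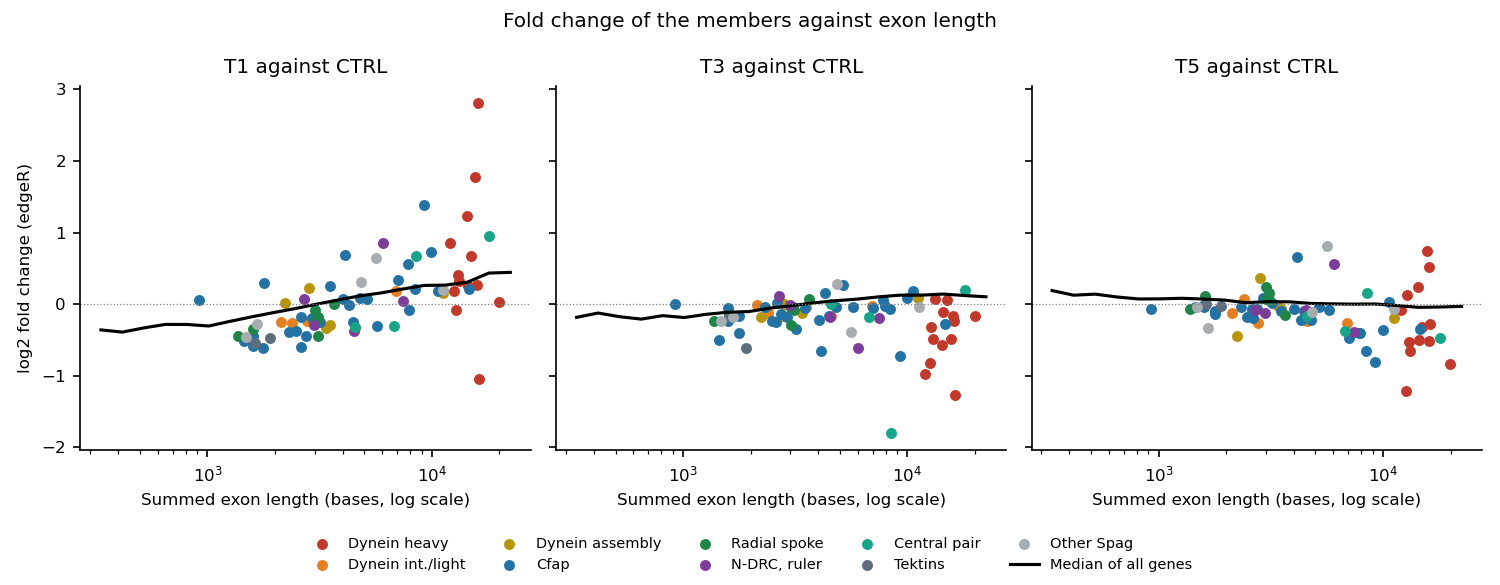
Log2 fold change against CTRL of each of the 75 genes by summed exon length (log axis) at T1, T3 and T5, with the running median of all genes tested as a line. At T1 the 25 longest genes have a median of 0.27 and the 25 shortest -0.34, and at T5 the longest have -0.35 while all genes in that class have -0.01.

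At T5 the order was the other way round. All genes showed the same order, with a smaller difference between the length classes. The 25 longest members had a median of -0.35 and the 25 shortest -0.07, against -0.01 and 0.05 for all genes of those lengths. All 13 heavy chains are among these longest members, so the length result and the heavy chain result are not separate. With the length trend removed the longest members were at -0.30, and the heavy chains at -0.25. Library by library, the median of the 25 longest minus that of the 25 shortest, relative to the CTRL mean, was 0.33, -0.09, -0.09, -0.24 and 0.17 in CTRL. It was 0.01, 0.61, 0.95 and 1.06 in T1, -0.10, -0.18, -0.13 and 0.55 in T3, and -0.41, -0.29, -0.06 and -0.26 in T5. The 4 highest values are those of the 4 libraries of high title number. All T5 libraries were negative, and T5 replicate 3 lay within the CTRL range.

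**Figure D5:**
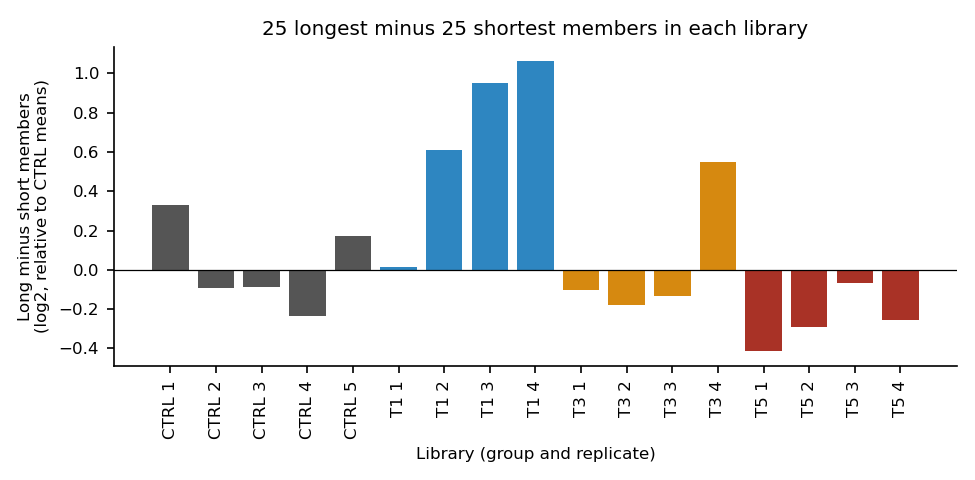
Median log2 deviation of the 25 longest minus that of the 25 shortest genes in each library, relative to the CTRL mean, by group with 1 bar per library. T1 replicates 2 to 4 (0.61, 0.95 and 1.06) and T3 replicate 4 (0.55) lie above every other library, and the T5 libraries lie between -0.41 and -0.06.

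Markers of neighbouring tissue were set beside each member. In a fit with the brain marker score of each library as a covariate, 4 members had a higher level with a higher score and 3 a lower one at an edgeR adjusted p under 0.05, against 10.4% and 2.13% of all genes. The 4 were Cfap46, Dnah3, Cfap100 and Dnah5, with slopes of 0.48 ± 0.10, 0.52 ± 0.12, 0.36 ± 0.11 and 0.77 ± 0.23 log2 per unit of score. The 3 were Cfap206, Cfap298 and Rsph4a, at -0.12 ± 0.03, -0.12 ± 0.04 and -0.09 ± 0.03. With the ependymal score, 2 members had a positive slope past that p (1.19% of all genes): Cfap100 at 0.84 ± 0.15 and Dnah10 at 1.68 ± 0.37. That score holds no member, but it includes Fam183b, which is also among the other axoneme and assembly genes below. It is therefore not independent of cilium genes, here or as a covariate. The share of members with a higher level at a higher brain score was below that of all genes, and the shares were not tested against each other. All 5 genes with a positive slope are among the 9 with a spread over 50%. The heavy chain median at T5 was -0.50 with the brain covariate and -0.46 with the ependymal one.

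Genes of the same pathway outside the name rule were read from the same fit. Of 13 multiciliation factors, which switch on the ciliary programme and multiply basal bodies, 12 were tested. At an unadjusted p under 0.05, 2 were lower at each of T1, T3 and T5, against 11.7%, 1.77% and 3.94% of all genes. In the other direction 0 were higher, against 9.43%, 3.2% and 3.89%. Foxj1, the master regulator of motile cilia, gave CPM of 77.2, 71.2, 112, 105 and 84 in CTRL, 68.7, 63.3, 75.1 and 66.9 in T1, 72.05, 70.4, 56.9 and 48.9 in T3, and 101, 61.7, 89.3 and 75.5 in T5. Every T1 library but replicate 3 and every T3 library but replicate 1 lay below all of CTRL. The differences were -0.39 ± 0.16 at T1, -0.54 ± 0.16 at T3 and -0.14 ± 0.16 at T5, with edgeR adjusted p = 0.189, 0.911 and 0.897. Deup1, a factor in basal body amplification, was at -0.95 ± 0.40 at T3. Of 53 other axoneme and assembly genes, 48 were tested. At that p, 1 was higher and 20 lower at T1 (against 9.43% and 11.7% of all genes). The counts were 0 and 2 at T3 (against 3.2% and 1.77%), and 0 and 7 at T5 (against 3.89% and 3.94%). Negative values at T1, T3 and T5 numbered 37, 43 and 36 of 48. Their lowest p at T3 were those of Tctex1d4, of the Tctex family of dynein light chains, at -0.77 ± 0.23, and Mns1, a microtubule inner protein gene, at -0.41 ± 0.15, both with edgeR adjusted p = 0.911.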

How the data were processed

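Total RNA from 17 choroid plexus samples was sequenced, and the authors deposited 1 table of whole-number read counts by Ensembl gene. Per the submitters' processing notes, the tools were featureCounts 1.6.4, STAR 2.6.1b and Trimmomatic 0.39, on GRCm38. Strand setting, annotation release and the treatment of multi-mapping reads: not given in the sources used here. Symbols, coordinates (1-based) and exon lengths came from GENCODE M21 on GRCm38, which held 55394 of 55487 gene IDs and lacked 93. The members, lists, tests and naming rule were chosen with earlier results of these data known.

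Groups came from the time point label, and replicate numbers only name samples. The test was that of edgeR 4.0.16 (R 4.3.3): filterByExpr by group, TMM, all 17 libraries with a mean for each group, robust quasi-likelihood, and Benjamini-Hochberg adjustment over 16851 genes at 0.05. The SE is approximate (size of the log2 fold change over the root of edgeR's F). The common biological coefficient of variation was 37.6%. The steps were tested on simulated data. RPKM used TMM library sizes. Depth was 8875921 to 26839417 counts, and PCR copies count as reads.

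Named genes were, per role, the 2 with the highest CPM, the 2 with the smallest p at each time point, and Hydin, Spag17, Dnah5, Dnah11, Rsph1, Rsph4a, Ccdc39 and Ccdc40. Of non-members, these were Foxj1 and the 3 with the smallest p at T3. Other names, such as Dnah9, Cfap53, Cfap65, Cfap300, Cfap46, Cfap100, Cfap206, Dnah3 and Dnah12, were picked after their values were seen. Alternatives were DESeq2 1.42.0, limma 3.58.1 voom, other size factors, no filter, only the groups compared, leaving out each library, covariates for brain and ependymal markers, and removal of a loess trend by length (span 0.5). The brain score is the mean log2 CPM of neuron, astrocyte and oligodendrocyte markers. Libraries whose title number was 28 or more were left out or given a term. Protein sequences were not used here.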

Additional observations from a re-analysis of the deposited data

Results flagged for a closer look

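In 10 cases a library of a named gene stood apart from the rest of its group by Dixon's criterion, where chance gives about 1 group in 20 and 176 groups were examined. In T3, replicate 4 was the library apart in 6 of them. It was the lowest for Cfap298 (43.5 TMM-normalised CPM against 78.3 to 83.7 in the other 3), Spag6l (76.8 against 124.4 to 126), Spag8 (23.2 against 37.3 to 39.5), Rsph3b (8.41 against 14.7 to 15.9) and Tekt1 (79.2 against 151 to 166). It was the highest for Dnah14 (1.525 against 0.271 to 0.482). In T1, replicate 4 was the highest for Dnah10 (13.02 against 0.733 to 2.72) and Spag9 (70.4 against 64.6 to 65.5). T5 replicate 2 was the lowest for Dnah2 (7.79 against 13.96 to 15.04). CTRL replicate 1 was the lowest for Drc7 (469 against 588 to 620.0).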

How the results depend on the processing

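The count of members past an adjusted p of 0.05 was 0 in every comparison by edgeR with all libraries. At T1 it was 5 by DESeq2, 28 by limma's voom with quality weights, 17 without T1 replicate 1 and 9 without T3 replicate 4, so that leaving out each library gave 0 to 17. At T5 DESeq2 gave 2 and at T5 against T3 it gave 3, and leaving out each library gave 0 at T3, at T5 and at T5 against T3. The cause of these shifts was not tested. The median log2 fold change of the members ran, over all alternatives, from -0.15 to 0.05 at T1, -0.18 to -0.03 at T3, -0.13 to -0.05 at T5 and -0.12 to 0.04 at T5 against T3. For the dynein genes it ran from -0.22 to 0.25 at T1 and from -0.40 to -0.17 at T5. For the Cfap genes it ran from -0.17 to -0.05 at T5, and for the radial spoke genes from -0.40 to 0.25 at T1 and from 0.01 to 0.22 at T5. Of 44 named genes, 12 changed sign at T1 and 12 at T3 without the 4 libraries of high title number, an omission that touches neither T5 nor CTRL. At T5, 10 changed sign with the brain covariate, 4 with the ependymal one, 6 without T5 replicate 3 and 5 without T5 replicate 2. With that omission T1 keeps 1 library, assumed to vary like the others. The length trend and the ependymal covariate were chosen after seeing the data. A raised member level of 5 CPM would keep 55 of 75 genes. No paired analysis was possible because the title numbers are unique and replicate numbers follow accession order only.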

Other observations

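Of the 83 genes with a fitting name, 8 were under the level and enter no comparison above. Spag11a and Spag11b, antimicrobial beta-defensin-like genes of the epididymis, had 0 reads in all 17 libraries. Rsph6a, a radial spoke gene best known from sperm, had a mean of 0.0283 CPM, Cfap97d1 0.104 and Spag6, the copy of Spag6l, 0.118. Dnah17, an outer arm heavy chain best known from sperm flagella, was at 0 to 1.002 CPM, and Dnah8, its partner there, at 0.0841 to 2.10 CPM. In T1, T3 and T5 both overlapped CTRL.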
